A study of Mus musculus with 8 samples.

Results

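Imprinted genes are transcribed mainly from 1 of the 2 parental copies, and 10 such genes that lie outside the Prader-Willi region were taken by symbol from the table of hippocampal RNA: Igf2, H19, Cdkn1c, Kcnq1ot1, Dlk1, Meg3, Peg3, Grb10, Plagl1 and Nnat. All 10 were among the 19201 genes of the table, and 9 had a mean of at least 10 normalized counts and were tested. The libraries were 4 from wild-type C57BL/6 mice and 4 from Mbd2-/- mice on the C57BL/6 background, all 10 to 12 weeks old and untreated. The study bred its littermates from heterozygote parents, and each library pooled the hippocampi of 2 mice. The line is a constitutive knockout of Mbd2, a reader of methylated CpG, in which exon 1 is intact and still gives reads.

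Genomic imprinting rests on DNA methylation that is laid down in the egg or the sperm and is kept on that copy after fertilization. The zinc finger proteins Zfp57 and Zfp445, with their partner Trim28, hold this germline mark through the early embryo, and Dnmt1 copies it at cell division. Methyl-CpG binding proteins such as Mbd2 can attach to methylated DNA and recruit repressor complexes. Many imprinted genes act in growth, and in the brain the group includes a growth factor, a Notch ligand relative, an insulin receptor adaptor, a cell cycle inhibitor, transcription factors and long noncoding RNAs. The question put to the data was whether the RNA of these genes differed between the genotypes. Reads were not assigned to a parental copy, so each value adds both alleles and says nothing of which one was transcribed.

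The stretches before the starts of the 4 members called under every alternative run are shown because methylated CpG is what Mbd2 binds. Each is the 250 bases upstream of a RefSeq start, 5′ to 3′ on the gene's own strand, with CpG in capitals. Where RefSeq gives several starts, the one with the most CpG was taken. Which start these hippocampi use was not measured. The sequences are from the GRCm38.p6 table, and each matched 1 place in mm9. On mm9 they lie at chr7:149844710-149844959 on the minus strand for Igf2, chr12:110690783-110691032 on the plus strand for Dlk1, chr7:6683131-6683380 on the minus strand for Peg3 and chr11:11937424-11937673 on the minus strand for Grb10.
Igf2: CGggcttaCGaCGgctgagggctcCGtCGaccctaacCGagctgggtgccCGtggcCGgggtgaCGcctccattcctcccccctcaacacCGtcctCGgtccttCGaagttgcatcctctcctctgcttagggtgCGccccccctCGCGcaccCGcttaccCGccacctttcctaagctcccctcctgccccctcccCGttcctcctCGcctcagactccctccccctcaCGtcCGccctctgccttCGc
Dlk1: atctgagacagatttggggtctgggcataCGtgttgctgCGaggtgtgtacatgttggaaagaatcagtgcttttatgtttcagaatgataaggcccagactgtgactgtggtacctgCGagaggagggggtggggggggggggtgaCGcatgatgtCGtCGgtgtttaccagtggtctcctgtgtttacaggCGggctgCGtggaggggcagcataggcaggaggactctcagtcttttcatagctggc
Peg3: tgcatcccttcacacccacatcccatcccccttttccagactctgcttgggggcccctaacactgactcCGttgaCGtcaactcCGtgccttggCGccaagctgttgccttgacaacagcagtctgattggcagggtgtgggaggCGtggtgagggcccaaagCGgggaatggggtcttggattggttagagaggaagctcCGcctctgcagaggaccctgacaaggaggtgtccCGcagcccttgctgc
Grb10: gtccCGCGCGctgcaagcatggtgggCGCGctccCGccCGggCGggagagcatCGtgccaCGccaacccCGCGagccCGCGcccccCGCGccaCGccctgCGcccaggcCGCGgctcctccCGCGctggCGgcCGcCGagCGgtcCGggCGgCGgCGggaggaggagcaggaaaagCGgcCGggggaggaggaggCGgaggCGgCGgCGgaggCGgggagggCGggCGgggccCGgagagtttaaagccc

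Over 250 bases before to 50 bases after the start, Grb10 held 45 CpG, a number that 1.93% of all 32851 RefSeq promoters of this length reach. Igf2 held 24 at the start shown, Peg3 13 and Dlk1 9, beside a median of 7 over all promoters. The starts not shown held 9 for Grb10, which 45.8% of promoters reach, and 7, 14 and 2 for Igf2. Promoters were found for 8 of the 10 members, 13 in all, and not for H19 and Cdkn1c. The letters TGCCGC, in which Zfp57 binds the methylated CpG, were searched on both strands as the only motif. They stood in 5 of the 13 promoters, those of Plagl1, Nnat, 1 of 2 starts of Meg3, 1 of 2 starts of Grb10 and 1 of 4 starts of Igf2, beside 11.6% of all promoters. None of the 4 stretches printed above holds them, since the match of Grb10 lies in the 50 bases after the start shown and that of Igf2 at another start. The 5 promoters with these letters held 13 to 45 CpG, and the 11.6% was not matched for CpG number. The matches are letters in a window, and neither binding nor methylation was measured here.

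Of the 9 tested members, 1 was called higher in Mbd2-/- hippocampi (Igf2) and 4 were called lower (Dlk1, Peg3, Grb10 and Plagl1), at a Benjamini-Hochberg adjusted p under 0.05 from limma over all 14504 tested genes. Of all tested genes, 22.0% were called, 12.0% higher and 10.0% lower. The genotypes did not overlap in the same 5 members, beside 23.6% of all tested genes. The median log2 fold change of the 9 members was -0.34, with a range from -1.20 for Dlk1 to 0.43 for Igf2, and that of all tested genes was -0.0001. Kcnq1ot1, Meg3, Cdkn1c and Nnat were not called. Without Mbd2-/- replicate 4, a library that stood apart from the other Mbd2-/- libraries, 8 of the 9 members were called, 2 higher and 6 lower, and the calls over all genes rose from 3185 to 5155. In bulk RNA, fewer cells of a type and less RNA per cell cannot be told apart.

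**Figure D1:**
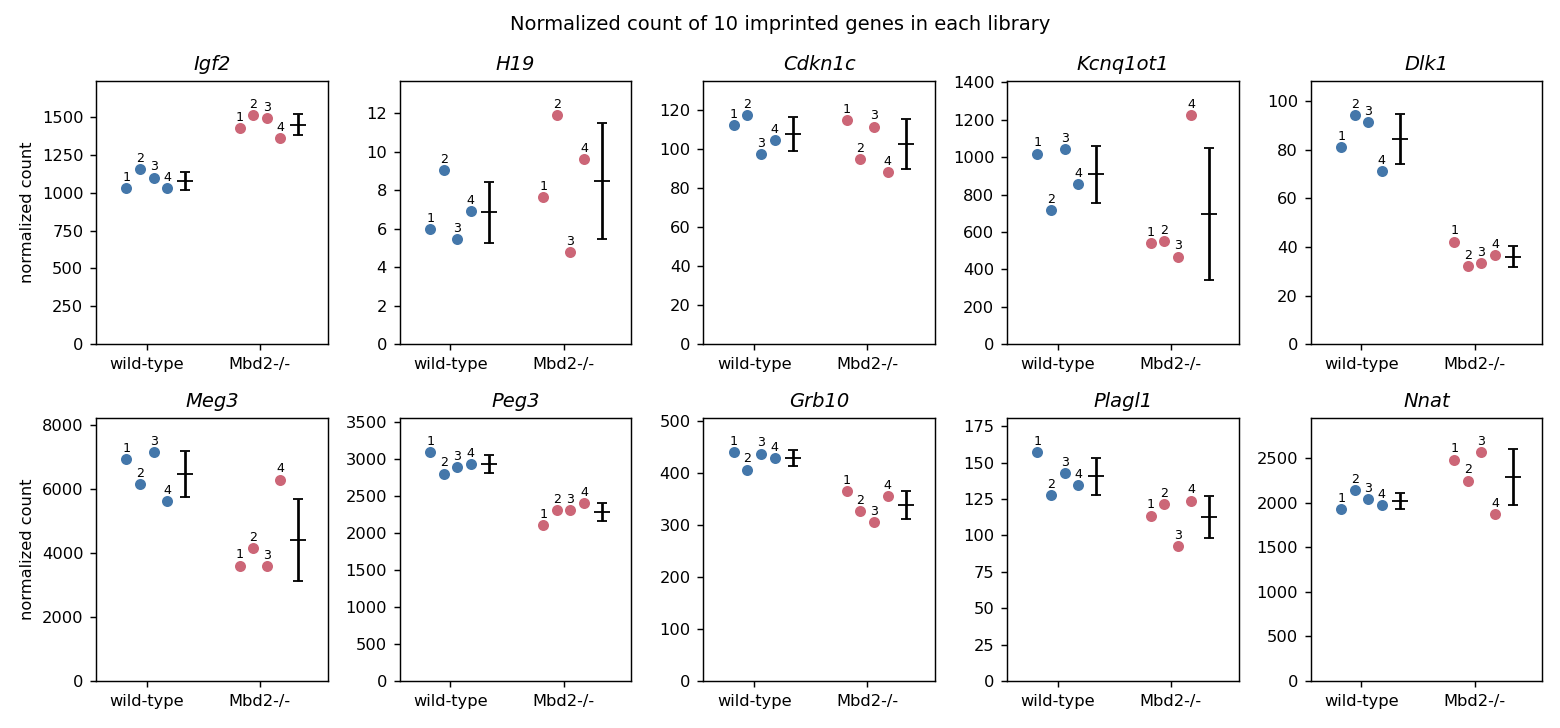
Normalized count (vertical axes, from 0) of each of the 10 genes in the 4 wild-type (blue) and 4 Mbd2-/- (red) libraries, with the replicate number at each point and the mean ± SD as a black bar. Igf2 lies higher and Dlk1, Peg3, Grb10 and Plagl1 lie lower in all Mbd2-/- libraries, and Mbd2-/- replicate 4 stands apart for Kcnq1ot1 (1223 normalized counts) and Meg3 (6299).

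The libraries held 8087750 to 23790825 reads on genes. Mbd2 itself measured 295 to 371 normalized counts in wild-type and 217 to 339 in Mbd2-/- libraries, which overlapped, with a log2 fold change of -0.43 (SE 0.12, adjusted p = 0.0174, limma). Reads from the intact exon limit this check of the labels. Markers of hippocampal neurons summed to 20018 to 20614 normalized counts in wild-type and 18795 to 18930 in Mbd2-/- libraries, so the labelled tissue was present in all. Over the tested genes of known length, the change of a gene followed its transcript length in Mbd2-/- replicates 1 to 3 (Spearman's rho -0.48, -0.43 and -0.48, across genes) and hardly in replicate 4 (-0.10) or in wild-type libraries (-0.07 to 0.06). Members are therefore also given without replicate 4 and with the length trend removed where this changes a call.

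The members covered a wide range of levels. Per kb of the longest annotated transcript, the wild-type means were 1394 normalized counts for Nnat, 445 for Meg3, 337 for Peg3 and 228 for Igf2. Grb10 had 84.7, Cdkn1c 55.9, Plagl1 26.8, Dlk1 18.1 and H19 3.00 normalized counts per kb. No length was at hand for Kcnq1ot1 in the mm9 annotation. Replicates were close for most, with a coefficient of variation in wild-type libraries of 3.54% for Grb10, 4.15% for Peg3, 4.51% for Nnat and 5.54% for Igf2, and up to 16.7% for Kcnq1ot1 and 22.9% for H19. Neighbours in this order were not compared by a test.

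Igf2 encodes insulin-like growth factor 2, a secreted growth factor that signals through the Igf1 and insulin receptors and is transcribed mostly from the paternal copy. In the adult brain it is known from the choroid plexus and the meninges, where both copies are transcribed. The gene lies at chr7:149836673-149852721 on the minus strand of mm9. It measured 1029.7, 1153, 1100.3 and 1031 normalized counts in wild-type replicates 1 to 4 and 1428, 1511, 1495 and 1359.8 in Mbd2-/- replicates 1 to 4. Every Mbd2-/- library was above every wild-type library. The means were 1079 ± 59.8 and 1448 ± 69.2 (SD, n = 4 each), a ratio of 1.34, with a log2 fold change of 0.43 (SE 0.06, adjusted p = 1.98e-04, limma with Benjamini-Hochberg adjustment). The exact two-sided permutation test gave p = 0.0286, the smallest that 4 libraries against 4 allow, and the same p held for the other 4 called members. Igf2 was called in all 11 alternatives with every library and in all 8 that left out a library. It shares 7124 bases with the antisense gene Igf2as (listed as Igf2os, 6.19 normalized counts in wild-type and 8.36 in Mbd2-/-), and the counting is not stated to use strand.

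Markers of cells in which Igf2 is known were compared beside it. Choroid plexus markers summed to 24691 to 26415 normalized counts in wild-type and 47629 to 53990 in Mbd2-/- libraries, a ratio of 2.04, and all 18 of 18 were called higher, led by Ttr (log2 fold change 1.32). Over all tested genes 12.0% were called higher and 10.0% lower. Of 18 meningeal and fibroblast markers 3 were called higher and 2 lower, among them Col1a1 with 1.37 and Dcn with -0.51, and their sum was 6237 to 6711 normalized counts in wild-type libraries and 7908, 7227, 7474 and 6214 in Mbd2-/- replicates 1 to 4. Mbd2-/- replicates 1 to 3 were above every wild-type library and replicate 4 below them all, and 7 of the 18 did not overlap, beside 23.6% of all tested genes. Endothelial and pericyte markers gave 4 higher of 14 (5201 to 5358 and 5575 to 6133), led by Kcnj8 with 0.66, and ependymal markers 2 higher of 10 (803 to 891 and 865 to 1011), Ccdc153 with 0.46 and Foxj1 with 0.32, both lost with the length trend removed. In that setting a marker of the endothelial and pericyte list lost its call (0.20, adjusted p = 0.0509, limma) and another gained a call higher (0.21, adjusted p = 0.0469). A meningeal marker gained a call lower there (-0.42, adjusted p = 0.0257, limma). No marker of these lists was at 0 in all libraries. The part of these cells in the Igf2 result was not tested.

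H19, the noncoding RNA that shares enhancers and a paternally methylated control region with Igf2 and comes from the maternal copy, was close to silent. It lies 72.6 kb from Igf2 and had 3 to 13 reads per library. Its normalized counts were 6.00, 9.03, 5.47 and 6.90 in wild-type and 7.66, 11.9, 4.78 and 9.61 in Mbd2-/- libraries, so the genotypes overlapped. Its mean was under the limit of 10 and it was not tested with the others. The exact permutation test gave p = 0.371 (n = 4 each), and a difference was not detectable at this depth. Without the filter the log2 fold change was 0.23 (adjusted p = 0.696, limma). The log2 ratio of Igf2 to H19 was 7.12 ± 0.24 (SD, n = 4) in wild-type and 7.31 ± 0.51 (SD, n = 4) in Mbd2-/- libraries, with p = 0.6 in the exact two-sided permutation test. The ratio is set by the few reads of H19.

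**Figure D2:**
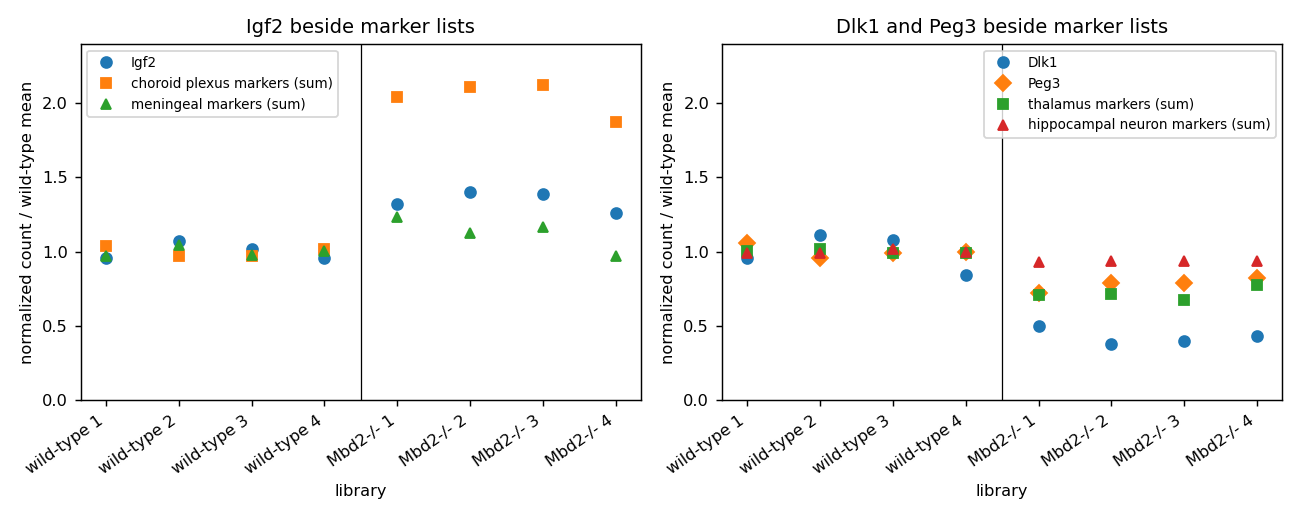
Normalized count divided by the wild-type mean (vertical axes, from 0) in each library, for Igf2 beside the summed choroid plexus and meningeal markers (left) and for Dlk1 and Peg3 beside the summed thalamus and hippocampal neuron markers (right). In Mbd2-/- libraries the choroid plexus sum is higher (group ratio 2.04) than Igf2 (1.34), and Dlk1 (0.427) is lower than the thalamus sum (0.718) while Peg3 (0.779) is above it.

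Dlk1 encodes a membrane protein related to the Notch ligands, known for holding back the maturation of fat and other precursor cells, and comes from the paternal copy. It lies at chr12:110691033-110701546 on the plus strand. Its normalized counts were 80.9, 94.0, 91.2 and 71.2 in wild-type replicates 1 to 4 and 42.1, 32.0, 33.5 and 36.5 in Mbd2-/- replicates 1 to 4. The highest Mbd2-/- library was well below the lowest wild-type library. The means were 84.3 ± 10.4 and 36.0 ± 4.48 (SD, n = 4 each), 2.34-fold lower in Mbd2-/-, with a log2 fold change of -1.20 (SE 0.14, adjusted p = 7.67e-05, limma), from 21 to 134 reads per library. It had the largest change of the 9 tested members and was called in all 11 alternatives with every library and all 8 that left out a library.

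Meg3, a maternally transcribed long noncoding RNA which lies 77.7 kb from Dlk1 in the same domain, was far more variable between Mbd2-/- libraries. Its normalized counts were 6953, 6159.6, 7164 and 5633 in wild-type and 3609, 4153, 3601 and 6299 in Mbd2-/- libraries. Mbd2-/- replicates 1 to 3 were below every wild-type library, and replicate 4 was among them. The log2 fold change was -0.59 (SE 0.19) with an adjusted p of 0.0711 in limma, and Meg3 was not called. Without Mbd2-/- replicate 4 it was -0.77 (adjusted p = 1.92e-04, limma), and with the length trend removed -0.43 (adjusted p = 0.0267), and over all alternatives the adjusted p reached 0.219. The gene has transcripts of up to 14548 bases, and it shares 3096 bases with an antisense gene, Gm17639.

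The rest of the domain on chromosome 12 did not move as a block. Dio3, the enzyme that inactivates thyroid hormone and stands at the far end of the domain, measured 25.5, 26.3, 17.3 and 18.6 normalized counts in wild-type and 12.8, 11.0, 1.59 and 9.61 in Mbd2-/- libraries. The genotypes did not overlap, and the log2 fold change was -1.46 (SE 0.43, adjusted p = 0.0231, limma). The call was lost without wild-type replicate 1 or without wild-type replicate 2, with an adjusted p of up to 0.0697. The 1.59 of Mbd2-/- replicate 3 is a single read, and without that library the log2 fold change was -0.91 (adjusted p = 0.0197, limma). Rian, a maternal host RNA of small nucleolar RNAs, had 3058 to 3472 normalized counts in wild-type and 3261 to 3834 in Mbd2-/- libraries (log2 fold change 0.09, adjusted p = 0.273, limma). With the length trend removed Rian was called higher (0.17, adjusted p = 0.0182, limma). Rtl1 with -0.36, Mirg with -0.18 and Begain with 0.19 were not called either (limma). The log2 ratio of Dlk1 to Meg3 was -6.25 ± 0.16 (SD, n = 4) in wild-type and -6.87 ± 0.43 (SD, n = 4) in Mbd2-/- libraries, a difference of -0.62 with p = 0.0571 in the exact permutation test, and the genotypes overlapped. Chosen after the values were seen, the log2 ratio of Dlk1 to Rian was -5.28 ± 0.24 and -6.58 ± 0.19 (SD, n = 4 each) with no overlap, and that of Meg3 to Rian was 0.96 ± 0.23 and 0.29 ± 0.29 with overlap.

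Among the transcription factors, Peg3 encodes a zinc finger protein of the paternal copy that is abundant in neurons. It lies at chr7:6656603-6683132 on the minus strand and measured 3094, 2803, 2894 and 2926 normalized counts in wild-type and 2108, 2308, 2308 and 2401 in Mbd2-/- libraries. All Mbd2-/- libraries were below all wild-type libraries. The means were 2929 ± 122 and 2281 ± 124 (SD, n = 4 each), with a log2 fold change of -0.36 (SE 0.05, adjusted p = 3.43e-04, limma), and the call held in all 11 alternatives with every library and all 8 that left out a library. With the length trend removed the log2 fold change of Peg3, which has transcripts of up to 8694 bases, was -0.23 (adjusted p = 0.00347, limma). Usp29, which is transcribed from the same paternal control region in the opposite direction, fell with it. Its normalized counts were 387, 379.9, 315 and 343 in wild-type and 204, 238, 250.2 and 291 in Mbd2-/- libraries, with no overlap and a log2 fold change of -0.54 (SE 0.10, adjusted p = 0.00158, limma). The maternal neighbour Zim1 had a log2 fold change of -0.26 (SE 0.23) and was not called. The log2 ratio of Peg3 to Usp29, chosen after the values were seen, was 3.04 ± 0.13 (SD, n = 4) in wild-type and 3.22 ± 0.14 (SD, n = 4) in Mbd2-/- libraries and overlapped.

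Plagl1, also known as Zac1, is a zinc finger transcription factor that holds back cell division and comes from the paternal copy, at chr10:12810497-12851500 on the plus strand. It measured 157, 128, 143 and 135 normalized counts in wild-type and 114, 122, 92.4 and 124 in Mbd2-/- libraries. The genotypes did not overlap, with only 128 against 124 between the nearest libraries. The log2 fold change was -0.32 (SE 0.11) and the adjusted p of 0.0499 from limma was at the threshold. It was called in 4 of 11 alternatives with every library and in 1 of 8 that left out a library, with an adjusted p of 0.113 in DESeq2 and 0.0701 in edgeR's quasi-likelihood test and a range of 0.0141 to 0.147 over all alternatives. With the length trend removed the log2 fold change was -0.24 and the call was lost (adjusted p = 0.133, limma). The neighbours Ltv1 (log2 fold change -0.11) and Phactr2 (-0.03) were not called.

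Grb10 encodes an adaptor that binds the insulin and Igf1 receptors and damps their signal, and it is known to come from the paternal copy in neurons and from the maternal copy in most other tissues. It lies at chr11:11830511-11938686 on the minus strand. Its normalized counts were 441, 407, 438 and 429 in wild-type and 365, 326, 306 and 357 in Mbd2-/- libraries. Every Mbd2-/- library was lower than every wild-type library. The means were 429 ± 15.2 and 339 ± 27.3 (SD, n = 4 each), with a log2 fold change of -0.34 (SE 0.07, adjusted p = 0.00373, limma), and the call held in all 11 alternatives with every library and all 8 that left out a library. Cobl, a regulator of actin next to Grb10, had 307 to 411 normalized counts in wild-type and 274 to 298 in Mbd2-/- libraries (log2 fold change -0.26, adjusted p = 0.0376, limma). Cobl was called in 8 of 11 alternatives with every library and in 3 of 8 that left out a library, and with the length trend removed it had -0.17 (adjusted p = 0.186). Ddc with -0.20 and Ikzf1 with 0.18 were not called.

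Cdkn1c, also known as p57Kip2, is a cell cycle inhibitor of the maternal copy at chr7:150644255-150646955 on the minus strand. It measured 112, 117, 97.5 and 105 normalized counts in wild-type and 115, 95.1, 112 and 88.4 in Mbd2-/- libraries, and the genotypes overlapped. The log2 fold change was -0.08 (SE 0.11, adjusted p = 0.659, limma), and Cdkn1c was called in none of the alternatives. Kcnq1ot1, the long noncoding RNA of the paternal copy that is known to keep Cdkn1c and its neighbours silent on that copy, lies inside Kcnq1. It measured 1019, 719, 1044 and 855 normalized counts in wild-type and 539, 549.6, 469 and 1223 in Mbd2-/- libraries. Mbd2-/- replicates 1 to 3 were below every wild-type library, and replicate 4 was above all of them. The log2 fold change was -0.49 (SE 0.33, adjusted p = 0.343, limma), and without Mbd2-/- replicate 4 it was -0.80 (adjusted p = 0.00141), while over the alternatives the adjusted p reached 0.564. Kcnq1ot1 had no known length, so it was not fitted with the length trend removed. The log2 ratio of Kcnq1ot1 to Cdkn1c was 3.05 ± 0.34 and 2.64 ± 0.78 (SD, n = 4 each; exact permutation p = 0.371). None of the tested neighbours, Cd81 (log2 fold change 0.11), Tssc4, Nap1l4, Cars and Osbpl5 (-0.14), was called in limma, and Kcnq1 itself was under the limit with 7.16 normalized counts in wild-type and 6.40 in Mbd2-/-.

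Nnat encodes neuronatin, a small membrane protein of the paternal copy, at chr2:157385814-157388258 on the plus strand, wholly inside the span of Blcap on the other strand. It measured 1929, 2137, 2039 and 1970.5 normalized counts in wild-type and 2482, 2248, 2568 and 1868 in Mbd2-/- libraries. Mbd2-/- replicates 1 to 3 were above every wild-type library, and replicate 4 was below them all. The log2 fold change was 0.17 (SE 0.08, adjusted p = 0.134, limma). Without replicate 4 it was 0.27 (adjusted p = 1.88e-04), and with the length trend removed -0.0018 (adjusted p = 0.987). The longest transcript has 1448 bases, the shortest of the 9 members with a known length. Blcap had a log2 fold change of -0.11 and was not called, and with the length trend removed it was called lower (-0.20, adjusted p = 0.0227, limma).

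**Figure D3:**
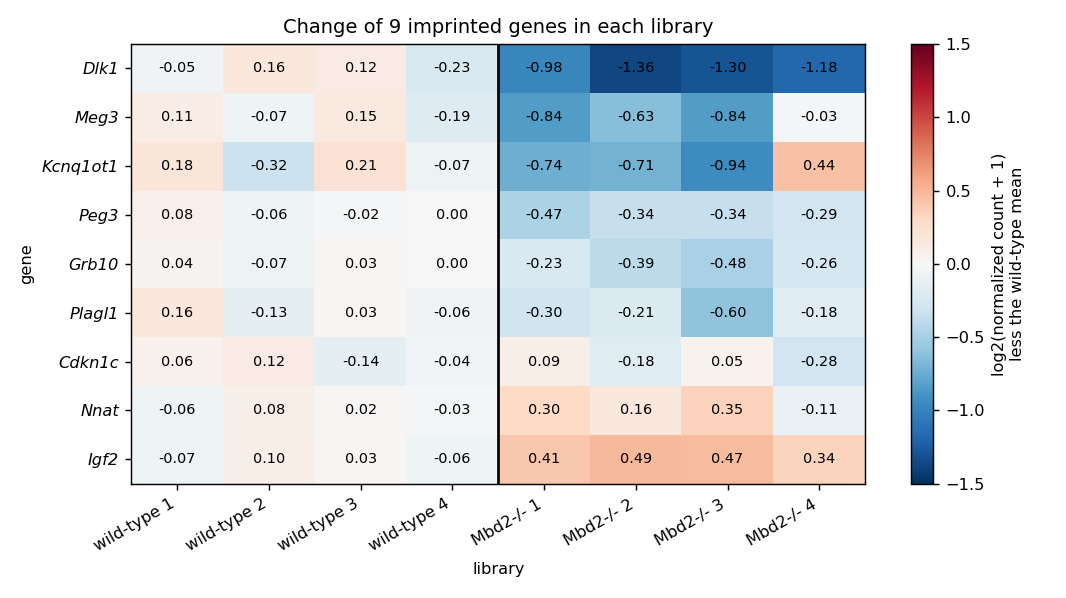
Log2(normalized count + 1) less the wild-type mean (colour and printed number) of the 9 tested genes (rows) in each library (columns), with wild-type left of the line. Dlk1 ranges from -1.36 to -0.98 over the Mbd2-/- libraries and Igf2 from 0.34 to 0.49, while Mbd2-/- 4 goes against the other 3 for Kcnq1ot1 (0.44) and Nnat (-0.11).

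The thalamus borders the hippocampus, and its markers, like the members that fell, had lower means in Mbd2-/- than in wild-type libraries. They summed to 6759 to 6953 normalized counts in wild-type and 4590 to 5303 in Mbd2-/- libraries, a ratio of 0.718, and 12 of 14 were called lower, where 10.0% of all tested genes were, with the largest change in Gbx2 (log2 fold change -1.51). Of 15 hippocampal neuron markers, 3 were called lower and 1 higher, near the 22.0% of all tested genes called in either direction: Wfs1 with -0.31, Fibcd1 with -0.29, Prox1 with -0.20 and Spink8 with 0.31 (0.0050 with the length trend removed, and not called). In that setting another hippocampal neuron marker gained a call higher (0.24, adjusted p = 0.00625, limma). Hypothalamus markers were near the detection limit in all libraries, with a sum of 92.4 to 117 in wild-type and 88.7 to 115 in Mbd2-/- for 15 genes, of which 12 had a mean under 10. None of the marker genes was at 0 in all libraries. The part of these tissues in the values of Dlk1, Peg3, Grb10 and Plagl1 was not tested.

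**Figure D4:**
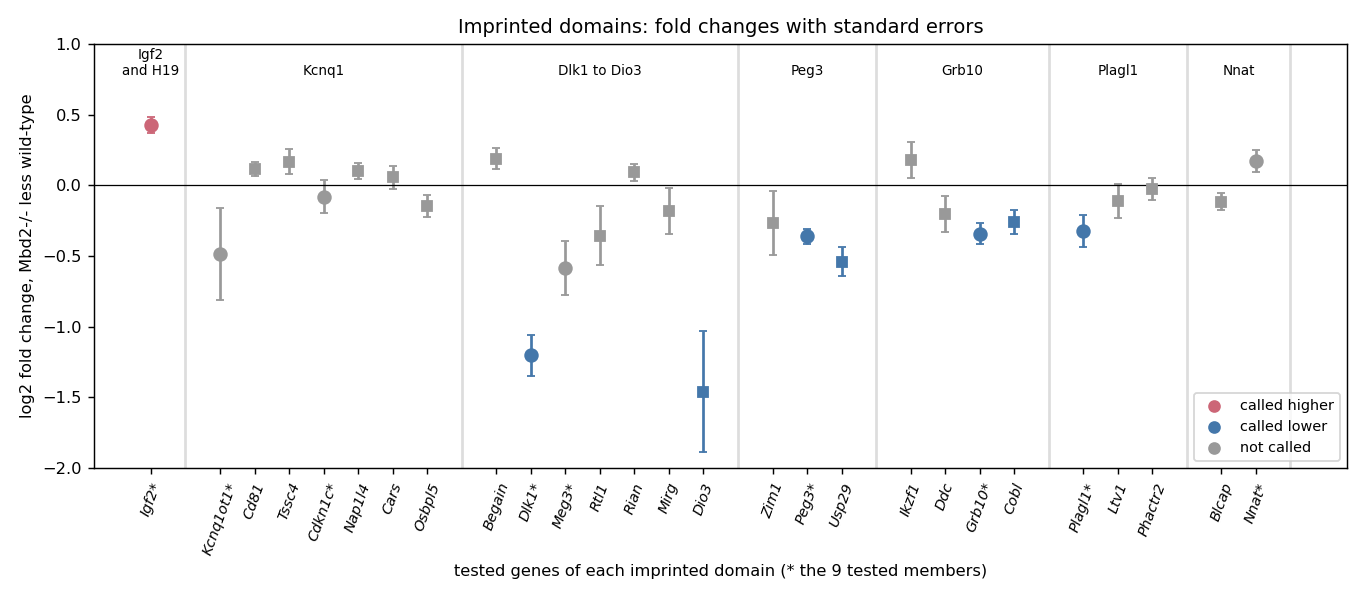
Log2 fold change, Mbd2-/- less wild-type, with its standard error (vertical axis) for the tested genes of the 7 imprinted domains, in chromosome order except that Kcnq1ot1 is placed first; circles with a star are the 9 tested members and squares their neighbours. The 3 called neighbours are Dio3 (-1.46), Usp29 (-0.54) and Cobl (-0.26), and Rian (0.09) does not follow Dlk1 (-1.20).

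Over all domains, 3 of 18 tested neighbours were called lower and 0 higher in limma, where 10.0% of all tested genes were called lower. Their median log2 fold change was -0.11, and without Mbd2-/- replicate 4 the calls were 7, against 1 without wild-type replicate 1 or wild-type replicate 2. Among 27 tested imprinted genes of other domains, 5 were called higher and 5 lower, where 12.0% of all tested genes were called higher and 10.0% lower and 22.0% in either direction. Their median was -0.07. With the length trend removed 5 were called higher and 2 lower of 26, and the calls of Zdbf2 (-0.19, adjusted p = 0.0687, limma) and Igf2r (-0.05, adjusted p = 0.671) were lost, while Peg13, with no known length, was not fitted. Leaving out single libraries gave 5 calls without wild-type replicate 1 or 4 and 15 without Mbd2-/- replicate 4. Pon3 and Pon2, lactonases beside Peg10, had log2 fold changes of 0.77 and 0.37, and Cdh15, a cadherin, had 0.64. Lower were Kcnk9, a potassium channel, with -0.47, Peg10, derived from a retrotransposon, with -0.45, and Zdbf2 with -0.35 (Zdbf2 overlapped, since Mbd2-/- replicate 4 had 556 normalized counts). Peg10 measured 354 to 407 normalized counts in wild-type and 263 to 299.8 in Mbd2-/- libraries, and Pon3 40.9 to 49.7 and 66.9 to 95.8. The most abundant, Gnas, which encodes a G protein subunit, was called higher with 0.17, and Rasgrf1 with -0.15 was not called (adjusted p = 0.0531, limma). The other 3 calls were Commd1 with 0.31, Peg13 with -0.30 and Igf2r, the receptor that clears Igf2, with -0.18, and these 3 were named after their values were seen. Pon2, Pon3, Peg10 and Kcnk9 were called in all 11 alternatives with every library and all 8 that left out a library, Cdh15 and Zdbf2 in 1 and 2 of these 8.

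Of 20 tested genes that place, keep or read germline marks, 4 were called lower and 0 higher, where 10.0% of all tested genes were called lower and 22.0% in either direction. The median log2 fold change was -0.10. Without Mbd2-/- replicate 4 there were 9 calls, and without wild-type replicates 1 or 4 or Mbd2-/- replicate 1 there was 1. Mbd1, another methyl-CpG reader and on chromosome 18 like Mbd2, measured 351 to 419.7 normalized counts in wild-type and 279 to 316 in Mbd2-/- libraries (log2 fold change -0.31, adjusted p = 0.00977, limma). The histone methyltransferase Setdb1 had -0.25, the DNA methyltransferase Dnmt3a -0.22 and the chromosome structure protein Smchd1 -0.20, and these 3 lost the call when the length trend was removed (-0.16, -0.08 and -0.08) and held it in 5, 3 and 1 of the 8 fits that left out a library. Ehmt2, an abundant histone methyltransferase, had 0.04 and was not called. Zfp57 (-0.11), Zfp445 (-0.19), Trim28 (-0.09), Dnmt1 (-0.14) and Ctcf (0.02), named for their role in imprinting after their values were seen, were not called either.

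Igf2 and Grb10 meet in the insulin and IGF pathway, of which 3 of 19 tested genes were called higher and 3 lower, close to the 12.0% and 10.0% of all tested genes. The median log2 fold change was -0.03. The 6 calls became 13 without Mbd2-/- replicate 4 and 3 without Mbd2-/- replicate 1 or 2. Igfbp2, a secreted binder of Igf2, measured 382, 414, 430.3 and 424 normalized counts in wild-type and 738, 704, 792 and 515 in Mbd2-/- libraries. The genotypes did not overlap, and the log2 fold change was 0.72 (SE 0.10, adjusted p = 3.55e-04, limma). Igfbp4, another binder, had 0.30 with overlapping libraries, and Grb14, a relative of Grb10, had 0.22. The receptor substrate Irs2 had -0.29, with 953 to 1051 normalized counts in wild-type and 775 to 873 in Mbd2-/- libraries, and the receptor Insr and the kinase Mtor had -0.20 each. Igfbp2, Irs2 and Mtor were called in all 8 fits that left out a library, Igfbp4 in 5, and Grb14 and Insr in 2 each. With the length trend removed the calls were 3 higher and 1 lower, and those of Mtor (log2 fold change -0.07, adjusted p = 0.435, limma), Insr (-0.07, adjusted p = 0.441) and Grb14 (adjusted p = 0.0702) were lost, while Igfbp5 gained one (0.15, adjusted p = 0.0273). Igfbp5, an abundant binder, had 0.05 and was not called.

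Relatives of the members outside imprinted domains gave 2 higher and 3 lower calls among 15 tested genes, where 12.0% and 10.0% of all tested genes were called. The median log2 fold change was 0.0022. Cdkn2c and Cdkn1b, cell cycle inhibitors like Cdkn1c, had log2 fold changes of 0.56 and 0.28 (adjusted p = 0.0408 and 0.019, limma), and the libraries of the genotypes overlapped in both. The potassium channel genes Kcnq5 and Kcnq3, relatives of the Kcnq1 gene that houses Kcnq1ot1, had -0.23 and -0.19. With the length trend removed the calls of Cdkn2c (adjusted p = 0.0724, limma) and Kcnq5 (adjusted p = 0.177) were lost. Dlk2 with -0.12, Plagl2 with -0.24 and the receptor Notch2 with 0.05 were not called, and Notch2 was called higher with the length trend removed (0.19, adjusted p = 0.0258, limma).

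For each called member, the genes with the nearest pattern were sought by the root mean square difference, over the 8 libraries, of log2(normalized count + 1) less its wild-type mean. Igf2 was nearest to Mbp (difference 0.036), Txndc12 (0.045) and Rps24 (0.047). Dlk1 was nearest to Pdzd7 (0.14), Hcn4 (0.19) and Ccbe1 (0.21), and Peg3 to Atp2a2, Atp8b2 and D630045J12Rik (0.038 to 0.040). Grb10 was nearest to Prpf40b, Pag1 and Fam135b (0.042 to 0.046), and Plagl1 to Trim66, Adam17 and Cdan1 (0.065 to 0.068). The measure follows the size of the genotype difference as well as the order of the libraries.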

How the data were processed

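Total RNA of hippocampi was depleted of ribosomal RNA and sequenced in 8 libraries, 4 per genotype. The authors removed duplicated reads, aligned to mm9 with STAR and compared genotypes with DESeq2, and the counter and versions are not given in the sources used here. The signal deposited by the authors is a normalized count, made by dividing a gene's reads by the library's size factor. The log2 fold changes with standard errors, the score (Wald statistic) and the p-value columns deposited by the authors hold their own comparison and were not used.

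The smallest value above 0 in a library is worth 1 read, and in units of it 100% of values were whole within 0.01, which gave back the reads. Genes with a mean of at least 10 (14504 of 19201) were compared on log2(normalized count + 1) with limma 3.58.1 (R 4.3.3, mean-variance trend, robust), with Benjamini-Hochberg adjustment and calls at 0.05. Fold changes are on the log2(normalized count + 1) scale, on which the pseudocount pulls those of low genes towards 0. The method was tested on simulated counts with neither a length trend nor a library that stands apart. The outcome is not reported here. Alternatives were TMM and upper quartile scaling, pseudocounts of 0.5 and 5, no filter or a mean of at least 50, edgeR 4.0.16, DESeq2 1.42.0 and limma-voom on recovered reads, removal of the length trend, the replicate number as a block, and leaving out each library. Coordinates are GENCODE vM1 on mm9, in which 94.3% of symbols matched.

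The members and lists were chosen with earlier results of these data known. Text names all members, Mbd2, up to 6 called genes with the largest change and the 2 most abundant genes of each other list, and the 3 genes nearest in pattern to each called member. Not all of the marker genes that this selects are printed, and some genes of the other lists are not reported here. Nothing says which mice entered which library, so p-values measure the spread between these pools. Read totals cover counting error only.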

Additional observations from a re-analysis of the deposited data

Results flagged for a closer look

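Of 64 groups of 4 libraries examined for a library far from its group, 2 were marked, and chance marks about 1 in 20. Kcnq1ot1 measured 1223 normalized counts in Mbd2-/- replicate 4, where the other 3 Mbd2-/- libraries had 469 to 549.6, a gap of 0.893 of the range. Igfbp4 measured 898 normalized counts in wild-type replicate 2, where the other 3 wild-type libraries had 982 to 994, a gap of 0.878 of the range.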

How the results depend on the processing

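The calls of Igf2, Dlk1, Peg3 and Grb10 held under every alternative run, and that of Plagl1 did not. The replicate numbers are not said to pair the libraries. The deviations of same-numbered libraries correlated at -0.10, -0.06, 0.07 and 0.04, which cannot decide whether these pools shared a litter or batch. With the replicate block, 4 members were called in place of 5 (Plagl1 had an adjusted p of 0.0566, limma), 4 domain neighbours, 11 other imprinted genes, 5 genes of the germline mark list and 6 of the insulin and IGF list, against 3, 10, 4 and 6 without it. DESeq2 called 1 domain neighbour, and removal of the length trend left 1 call in the germline mark list, where fewer genes were called over the whole table (2103 against 3185). Leaving out single libraries gave 4 to 8 called members, 1 to 7 neighbours, 5 to 15 other imprinted genes, 1 to 9 germline mark genes and 3 to 13 insulin and IGF genes, with the highest count each time without Mbd2-/- replicate 4 (5155 calls over the whole table). The difference in the log2 ratio of Igf2 to H19 ran from -0.042 (without Mbd2-/- replicate 3) to 0.34 around 0.19, that of Kcnq1ot1 to Cdkn1c from -0.78 to -0.21 and that of Dlk1 to Meg3 from -0.78 to -0.44. The log2 fold change of Nnat turned to -0.0018 when the length trend was removed. Other causes were not tested. Depth limits H19, with 3 to 13 reads per library.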
